A study of Drosophila melanogaster with 16 samples.

Results

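The genes described here encode the insulator and architectural proteins su(Hw), CTCF, BEAF-32, Cp190, mod(mdg4), Trl, dwg, Chro and pzg of Drosophila melanogaster. They were chosen by name and FlyBase identifier, by a rule that holds no expression value, and all 9 were found among the 15050 gene identifiers of the RNA-seq tables. Insulator proteins bind DNA at boundary elements, or are brought there by such DNA-binding partners, and can block an enhancer from acting on a promoter beyond the element. In flies they are known to occupy many borders of topologically associating domains (TADs) and the edges of lamina-associated domains, which lie against the nuclear lamina. The zinc finger proteins su(Hw), CTCF and dwg, together with BEAF-32 and the GAGA factor Trl, bind DNA themselves. Cp190 and mod(mdg4) are BTB-domain cofactors that several of them recruit, and Chro and pzg form a complex of the decondensed interbands of polytene chromosomes.

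Poly(A)+ RNA was sequenced from 2 Lam-KD and 2 control cultures of S2 cells, a line of late embryonic origin that the sample records call macrophage-like. In Lam-KD cells, RNA interference was directed at lamin Dm0, the B-type lamin of flies, with long dsRNA, and control cells received dsRNA for the bacterial gene lacZ instead. Treatment lasted 5 days according to the sample records, which the methods of the study give as 1 day shorter. The 2 libraries of a condition are described as biological replicates. All samples come from one cell line, so that no group represents a tissue. H3 acetylation ChIP-seq and Hi-C were also done, and these were not used here because the tables at hand do not place the genes on the dm3 genome.

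The gene tables hold estimated counts, with totals of 16121164 and 16415699 for Lam-KD, against 16607051 and 14727743 for control cells. Across the 8283 genes that passed the expression filter of edgeR, Spearman's correlation was 0.996 between the Lam-KD and 0.993 between the control libraries, a description in which genes are not independent replicates. The median log2 fold change of all genes tested was 0.0074. At a Benjamini-Hochberg adjusted p under 0.05, the quasi-likelihood test of edgeR called 3 of 8283 genes, or 0.0362%, all 3 of them higher in Lam-KD cells. This count was 30 without Lam-KD replicate 1, 15 without Lam-KD replicate 2, 811 without control replicate 1 and 64 without control replicate 2. The reference table gives symbols for 137 of the 15050 identifiers, and the gene of the targeted lamin, the 9 haemocyte markers and the 13 markers of other cell types are not among them. No value of the lamin transcript is therefore given, so that its depletion is not shown here. The study itself compared lamin Dm0 protein in Lam-KD and control S2 cells by Western blot, which is no value of these RNA libraries. Lam-KD stands throughout for libraries labelled as such, with each direction resting on that label. The labelled cell type was not checked either.

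None of the 9 insulator genes passed the test in Lam-KD against control cells. Their transcripts were detected in every library, from 265 counts for dwg in control replicate 2 to 8483 counts for mod(mdg4) in control replicate 1, and all 9 passed the expression filter. At an adjusted p under 0.05, edgeR's quasi-likelihood test called 0 of 9, against the 0.0362% of all genes, and DESeq2, which called 0.507% of all genes, edgeR's exact test and limma-voom also called 0 of 9. At an unadjusted p under 0.05 edgeR's quasi-likelihood test and each of these 3 tools marked 1 of the 9, su(Hw). Over all 8283 genes, 488 had such a p in DESeq2, 677 in edgeR's exact test and 829 in limma-voom. These tests draw on the same libraries and are not separate support. Under the weaker expression filter of the study, the quasi-likelihood unadjusted p of su(Hw) was 0.0553. The count of 1 of 9, the like count over all genes and the log2 fold changes also depended on single libraries. Without Lam-KD replicate 2 the log2 fold change of su(Hw) was -0.248. Without control replicate 2 those of CTCF, BEAF-32 and Chro were -0.174, -0.256 and -0.177, against -0.0297, -0.073 and 0.0643 without control replicate 1. With no library left out, the quasi-likelihood test gave 9.57% of all genes an unadjusted p under 0.05. For 4.52% of all genes this came with a lower level in Lam-KD cells. The median log2 fold change of the 9 genes was -0.059, and they ran from -0.56 for su(Hw) to 0.078 for dwg. Of the 9 log2 fold changes 5 were negative, against 48.3% of all genes. For 7 of the 9 the absolute log2 fold change was smaller than 0.12, the median of all genes.

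**Figure D1:**
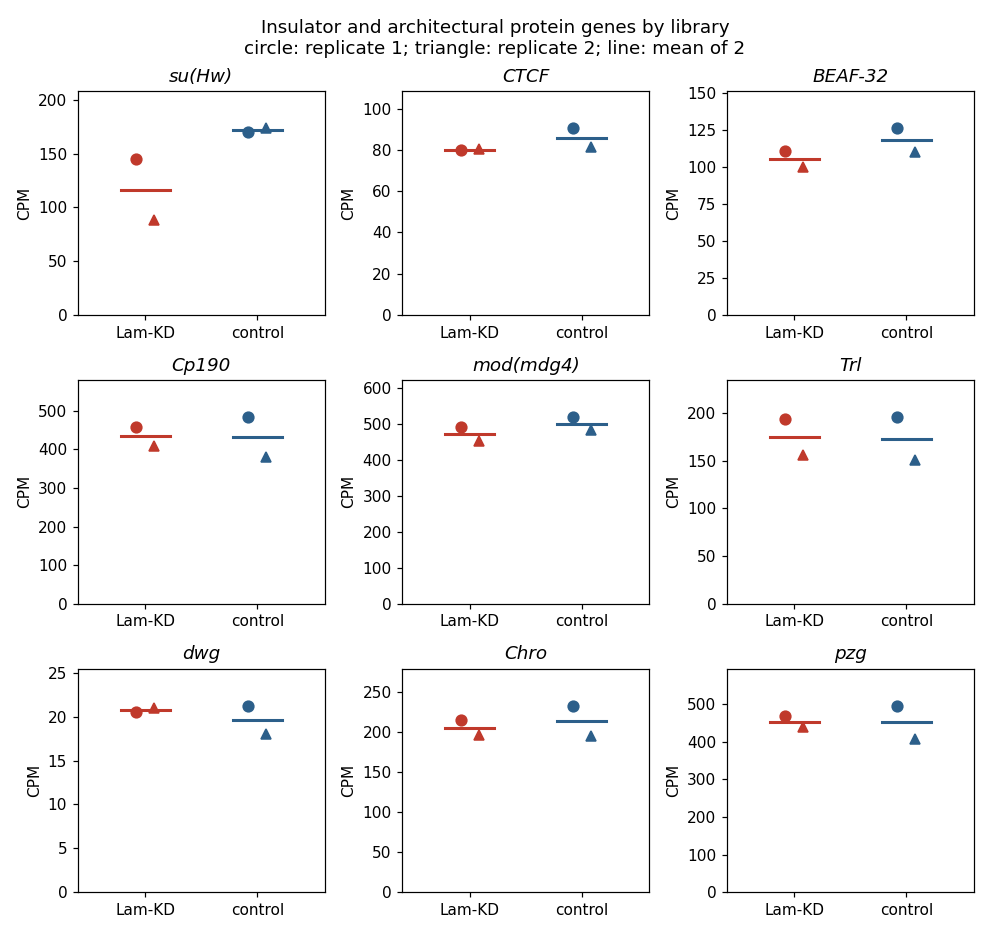
Normalised level of each gene (y axis, CPM, counts per 1000000 counts, from 0) in each Lam-KD library and each control library, with circles for replicate 1, triangles for replicate 2 and lines for the mean of the 2 libraries. su(Hw) lies at 145 and 88.6 CPM in Lam-KD against 170 and 173 CPM in control cells, whereas the libraries of Cp190, mod(mdg4), Trl, dwg, Chro, pzg and BEAF-32 overlap between the conditions.

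Levels are given as CPM, the counts of a gene per 1000000 counts in the genes tested, after TMM normalisation, which corrects the library sizes for differences in RNA composition. They are not divided by transcript length and serve to compare libraries for one gene, not one gene with another. In bulk RNA, fewer cells that transcribe a gene and less of its RNA per cell cannot be told apart. With 2 libraries against 2, an exact two-sided permutation test of a single gene cannot go below p = 0.333, so the tests given are those fitted across all genes.

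Among the DNA-binding proteins, su(Hw) (FBgn0003567), which binds the insulator of the gypsy retrotransposon and blocks enhancers from there, stood at 145 and 88.6 CPM in the Lam-KD libraries, against 170 and 173 CPM in the control libraries. The underlying counts were 2341 and 1474 in Lam-KD and 2767 and 2547 in control cells. Both Lam-KD libraries thus lie below both control libraries, as they do for 21.8% of all genes tested, and the 2 Lam-KD libraries lie far apart while the control libraries nearly coincide. The mean was 117 ± 39.5 CPM in Lam-KD cells and 172 ± 2.69 CPM in control cells (SD, n = 2 each). The log2 fold change of su(Hw) was -0.56 in edgeR, which corresponds to 0.679 of the control level. DESeq2 put it at -0.562 with a standard error of 0.20. Its adjusted p was 0.516 by edgeR's quasi-likelihood fit across all genes (unadjusted, 0.0356). DESeq2 gave an adjusted p of 0.398 (unadjusted, 0.00526). The 95% interval of the log2 fold change from limma-voom was -1.11 to -0.095, around that tool's own estimate of -0.60. It is an interval for a single gene and does not allow for the 8283 genes tested.

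The value of su(Hw) depends on which Lam-KD library is included. Without Lam-KD replicate 2 the log2 fold change was -0.25 (edgeR adjusted p = 1), and without Lam-KD replicate 1 it was -0.95 (edgeR adjusted p = 0.0416). Each of these fits assumes that the lone Lam-KD library varies as the control libraries do. Leaving out control replicate 1 or control replicate 2 gave -0.58 and -0.54, close to the value with all 4 libraries. The gap between the Lam-KD replicates was 0.71 on the log2 scale, with replicate 1 the higher, whereas the control replicates differed by -0.032. In the annotation of Release 6 of the genome, su(Hw) overlaps the gene IFT54, and without stated use of strand in the counting, reads of the 2 genes may not be fully separated.

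**Figure D2:**
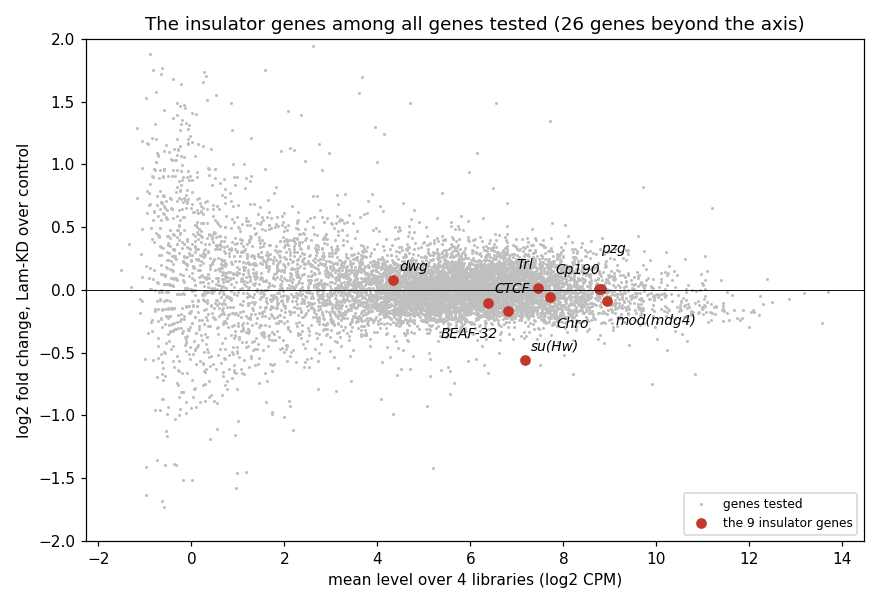
Log2 fold change of Lam-KD over control (y axis) against the mean level over the 4 libraries (x axis, log2 CPM) for all genes tested (grey) and the 9 insulator genes (red). su(Hw), at -0.56, lies below the other 8, which lie between -0.16 and 0.078. Beyond the y axis lie 26 genes.

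CTCF (FBgn0035769) is the zinc finger protein that vertebrates share with flies and that binds boundaries of the bithorax complex. It had 79.8 and 80.4 CPM in the Lam-KD libraries, against 90.4 and 81.3 CPM in the control libraries. The groups do not overlap, but the closest Lam-KD and control libraries differ by only -0.016 on the log2 scale, while the control replicates differ from each other by 0.15. The log2 fold change was -0.10 with a standard error of 0.13 from DESeq2 (edgeR quasi-likelihood adjusted p = 0.685), and the 95% interval from limma-voom was -0.32 to 0.12.

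BEAF-32 (FBgn0015602) binds the scs' boundary of the heat shock locus and many sites beside promoters of housekeeping genes. Its level was 111 and 100.1 CPM in Lam-KD, against 126 and 110 CPM in control cells. The higher Lam-KD library lies just above the lower control library, so the groups overlap, and 3 of the 4 possible log2 ratios of Lam-KD to control libraries are below 0. BEAF-32 had the second most negative log2 fold change of the 9 genes, -0.16 with a standard error of 0.13 from DESeq2, an edgeR quasi-likelihood adjusted p of 0.592 and a limma-voom interval of -0.41 to 0.085.

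dwg (FBgn0000520) encodes the protein of the scs boundary, another zinc finger factor, and had the lowest counts of the set, 332 and 349 in Lam-KD and 346 and 265 in control cells. On the CPM scale this was 20.5 and 21.0 in Lam-KD, against 21.2 and 18.1 in control cells, and both Lam-KD libraries lie between the control libraries. Its log2 fold change was 0.078 with a standard error of 0.19 from DESeq2 (edgeR quasi-likelihood adjusted p = 0.82). Counting error of up to 6.14% per library limits the precision of dwg more than that of any other member, since it did not exceed 2.89% in the other 8 genes.

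Trl (FBgn0013263) encodes the GAGA factor, which binds GA-rich promoters and boundaries and keeps them free of nucleosomes. It had 194 and 156 CPM in Lam-KD, against 196 and 150 CPM in control cells. Both Lam-KD libraries lie between the control libraries, and replicate 1 was the higher one in both conditions. The log2 fold change was 0.018 (edgeR quasi-likelihood adjusted p = 0.974), with a limma-voom interval of -0.36 to 0.40, the widest after that of su(Hw).

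**Figure D3:**
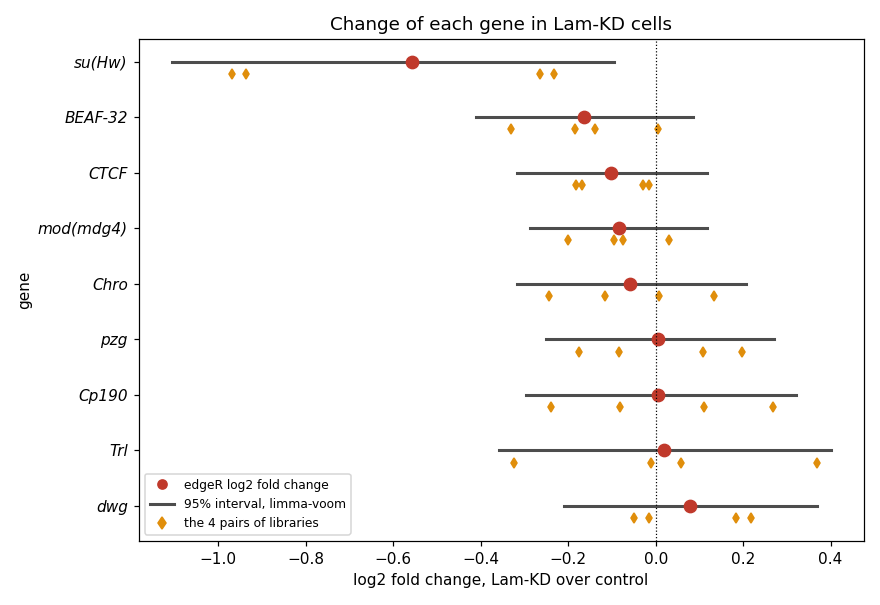
Log2 fold change of Lam-KD over control (x axis) for each gene (y axis), with red circles for the edgeR estimate, grey bars for the 95% interval from limma-voom and orange diamonds for the 4 possible ratios of Lam-KD to control libraries. The interval of su(Hw) runs from -1.11 to -0.095, and those of the other 8 genes include 0.

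The groups overlap for both cofactors. Cp190 (FBgn0000283), which su(Hw), CTCF and BEAF-32 all recruit and which moves to centrosomes in mitosis, had 457 and 410 CPM in Lam-KD, against 484 and 380 CPM in control cells. Both Lam-KD libraries lie between the control libraries. Its log2 fold change was 0.0058 with a standard error of 0.14 from DESeq2 (edgeR quasi-likelihood adjusted p = 0.991), and the 95% interval from limma-voom was -0.30 to 0.32.

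mod(mdg4) (FBgn0002781) encodes a family of BTB proteins with a shared N-terminal part, one of which joins su(Hw) and Cp190 at the gypsy insulator. Its level was 494 and 452 CPM in Lam-KD, against 520 and 483 CPM in control cells, and the groups overlap by 1 library each. The log2 fold change was -0.085 with a standard error of 0.11 from DESeq2 (edgeR quasi-likelihood adjusted p = 0.729), and the limma-voom interval of -0.29 to 0.12 is the narrowest of the set. The reference table lists 31 transcripts of mod(mdg4), which are made by trans-splicing, and 6 separately annotated pre-mod(mdg4) genes that overlap it. The deposited value is 1 number per gene, so a shift between its isoforms cannot be seen, and reads of the overlapping genes may not be fully separated. For comparison, the table lists 10 transcripts of Trl, 5 of Chro, 3 each of su(Hw) and BEAF-32, 2 each of Cp190 and pzg, and 1 each of CTCF and dwg. The same limit from overlapping genes applies to CTCF (qm and an antisense RNA), BEAF-32 (an antisense RNA), Cp190 (Zip88E), Trl (Tsen34 among others) and Chro (an antisense RNA among others), whereas no gene overlaps dwg or pzg.

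The groups overlap likewise for the 2 interband proteins. Chro (FBgn0044324), a chromodomain protein that also joins the mitotic spindle matrix, had 215 and 196 CPM in Lam-KD, against 233 and 195 CPM in control cells. Its partner pzg (FBgn0259785), a zinc finger protein that also acts with the nucleosome remodelling factor NURF, had 467 and 438 CPM in Lam-KD, against 495 and 407 CPM in control cells. In both genes the Lam-KD libraries lie between the control libraries. The log2 fold change was -0.059 for Chro and 0.0052 for pzg, with standard errors of 0.13 and 0.13 from DESeq2 and edgeR quasi-likelihood adjusted p of 0.855 and 0.99. Their limma-voom intervals were -0.32 to 0.21 and -0.25 to 0.27.

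Over the 8 genes other than su(Hw), every limma-voom interval lies between 0.752 and 1.32 of the control level, and the smallest adjusted p in edgeR's quasi-likelihood test was 0.592. The lower bound is that of BEAF-32 and the upper that of Trl, and the interval of each single gene is narrower than this range. For each gene, a change within its own interval could not be told from none with 2 libraries per condition. A p above the threshold does not show that the levels are equal. Apart from su(Hw) and CTCF, the groups overlap in the remaining 7 genes, and no member had both Lam-KD libraries above both control libraries, as 22.8% of all genes do. In either direction 44.5% of all genes tested have groups that do not overlap.

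Most members were higher in replicate 1 than in replicate 2 of a condition, the exceptions being su(Hw) in control cells and CTCF and dwg in Lam-KD cells. Control replicate 1 was the highest of the 4 libraries for 8 of the 9 genes, all but su(Hw), and control replicate 2 was the lowest for 5. Between the control libraries 8 of the 9 were lower in replicate 2, against 49.3% of all genes, and between the Lam-KD libraries 7 of the 9 were lower in replicate 2, against 50.8% of all genes. Summed over the 9 genes, the level was 2182 and 1944 CPM in Lam-KD, against 2334 and 1999 CPM in control cells. The sum is taken over genes of unequal counts and is led by mod(mdg4), pzg and Cp190. The within-group SD on the log2 scale ran from 0.077 for CTCF to 0.25 for Trl and 0.35 for su(Hw), and it exceeded 0.11, the median over all genes tested, in 7 of the 9.

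**Figure D4:**
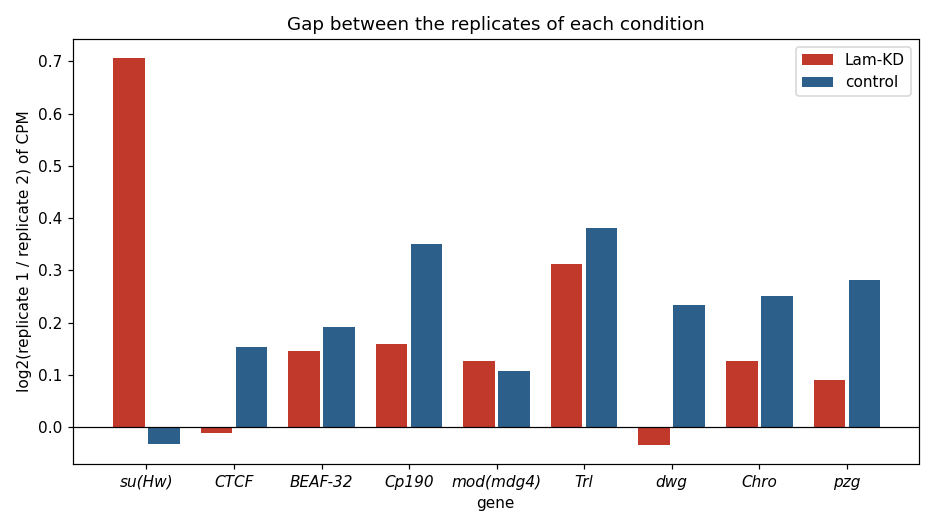
Log2 ratio of replicate 1 to replicate 2 of the CPM (y axis) for each gene (x axis), with red bars for the 2 Lam-KD libraries and blue bars for the 2 control libraries. su(Hw) has a gap of 0.71 in Lam-KD and of -0.032 in control cells, whereas Cp190 and pzg differ more between the control libraries, by 0.35 and 0.28.

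Count ratios within a library, which do not depend on the normalisation, were set beside the levels. They compare libraries only and are no measure of how many molecules of each transcript are present. Per 100 counts of Cp190 there were 31.6 and 21.6 counts of su(Hw) in Lam-KD, against 35.1 and 45.7 in control cells. Per 100 counts of mod(mdg4), its partner at gypsy, there were 29.3 and 19.6 counts of su(Hw) in Lam-KD, against 32.6 and 35.9 in control cells. In both ratios the Lam-KD libraries lie below the control libraries, and Lam-KD replicate 1 lies close to control replicate 1. Both reuse the su(Hw) counts given above, so they are not separate support for its lower level. They were not tested, and no share over other gene pairs was computed.

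Ratios were also taken without su(Hw). Chro stood at 46.0 and 44.8 counts per 100 counts of pzg in Lam-KD, against 47.0 and 48.0 in control cells. mod(mdg4) stood at 108 and 110 counts per 100 counts of Cp190 in Lam-KD, against 108 and 127 in control cells. BEAF-32 stood at 51.7 and 51.0 counts per 100 counts of Chro in Lam-KD, against 54.2 and 56.4 in control cells. Per 100 counts of Cp190 there were 17.4 and 19.6 counts of CTCF in Lam-KD, against 18.7 and 21.4 in control cells, and per 100 counts of pzg there were 4.39 and 4.79 counts of dwg in Lam-KD, against 4.29 and 4.44 in control cells. Of these 5 ratios, the groups overlap in 3 and do not overlap for Chro over pzg and BEAF-32 over Chro. No test was made of these ratios, and no share over other gene pairs was computed to read them against. As a share of the counts of all 9 genes, su(Hw) held 6.62% and 4.56% in Lam-KD, against 7.27% and 8.68% in control cells. On this scale BEAF-32 likewise lay lower in both Lam-KD libraries than in both control libraries, whereas Cp190, dwg and pzg lay higher. The groups overlap for CTCF, mod(mdg4), Trl and Chro. Shares of a fixed total depend on each other, and that of su(Hw) reuses its counts, so it is not separate support. The shares were not tested.

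The direction of 5 of the 9 members turned with the libraries or the scaling used. With each library left out in turn, the log2 fold change changed sign at least once for Cp190, Trl, dwg, Chro and pzg. In these genes both Lam-KD libraries lie between the control libraries, so the turn with the control library left out restates the levels given above. It stayed negative for su(Hw), CTCF, BEAF-32 and mod(mdg4) in these fits and in all 13 alternative settings, which include them. All settings draw on the same libraries, and the share of all genes that keep their sign was not computed. Scaling by upper-quartile factors also turned the sign of Cp190, Trl and pzg. Cp190, for example, was at 0.18 without control replicate 1 and at -0.16 without control replicate 2, with edgeR quasi-likelihood adjusted p of 0.191 and 0.341. Trl was at 0.21 and -0.16 in the same fits. The control replicates themselves differed by 0.35 for Cp190 and by 0.38 for Trl.

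**Figure D5:**
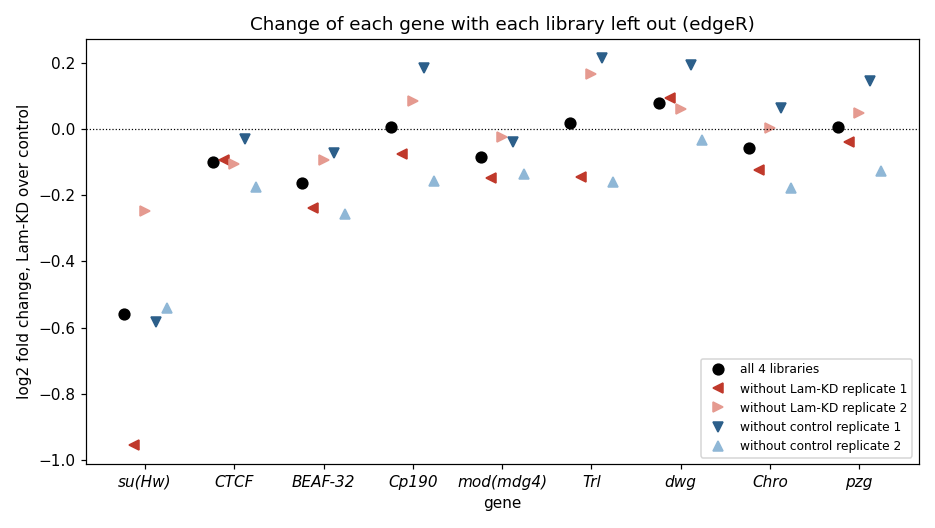
Log2 fold change of Lam-KD over control from edgeR (y axis) for each gene (x axis), with all 4 libraries (black) and with each library left out. su(Hw) moves to -0.95 without Lam-KD replicate 1 and to -0.25 without Lam-KD replicate 2, and Cp190, Trl, dwg, Chro and pzg lie on both sides of 0.

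Other insulator and architectural factors could not be added, since 0 of the 24 symbols on a list of them, such as pita, Ibf1, Clamp and JIL-1, could be paired with an identifier of the files.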

How the data were processed

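RNA-seq of 2 Lam-KD and 2 control cultures was used. The authors mapped reads to dm3 with HISAT2 2.1.0, removed reads of low mapping quality with SAMtools, quantified genes with StringTie on an older FlyBase annotation and deposited estimated counts per gene, whole numbers not scaled to depth. They sum to more than the reads that the methods state, so counting errors are a lower limit. Rows without a FlyBase gene identifier, at most 0.0329% of the counts, were left out.

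The 2 conditions were compared with edgeR 4.0.16 (filterByExpr, TMM, quasi-likelihood test, Benjamini-Hochberg adjustment over all genes tested, threshold 0.05) in R 4.3.3. Log2 fold changes are those of edgeR unless another tool is named. Standard errors came from DESeq2 1.42.0 and 95% intervals from limma 3.58.1 with voom. Each belongs to that tool's own estimate, which can differ slightly from that of edgeR. The rule for named genes took the 9 members, the targeted gene and list genes. No value of the targeted gene or of list genes is given, because the tables used do not pair them with identifiers. The members and lists were chosen with earlier results of these data known. RefSeq names, transcripts and overlaps refer to Release 6, and no coordinates were taken from it. Alternatives covered normalisation, filter, test, a replicate block and each library left out. As a check of the code only, the fit was run on simulated data with 200 changed genes. That run is no measure of the power to detect changes of the size seen in the 9 genes.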

Additional observations from a re-analysis of the deposited data

How the results depend on the processing

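No insulator gene was called under any alternative of normalisation, filter, test or replicate block. With each library left out the count ran from 0 to 1, the 1 being su(Hw) without Lam-KD replicate 1 (log2 fold change -0.95). Over all genes the count of 3 became 42 with DESeq2, 70 with edgeR's exact test, 12 with limma-voom, 7 with library totals alone, 9 with upper-quartile factors, and 0 with the filter of the study, where 942 genes had an unadjusted p under 0.05. With each library left out it ran from 15 without Lam-KD replicate 2 to 811 without control replicate 1. A replicate block, for which the samples share only a number and same-numbered deviations correlated at 0.026, called 53 genes and no insulator gene, with an adjusted p of 0.119 for su(Hw) in edgeR.

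Upper-quartile factors turned Cp190 to -0.020, Trl to -0.0074 and pzg to -0.022. With each library left out, the log2 fold change ran from -0.16 to 0.18 for Cp190, from -0.16 to 0.21 for Trl, from -0.13 to 0.15 for pzg, from -0.032 to 0.19 for dwg and from -0.18 to 0.064 for Chro. The cause was not tested. The order of levels between genes and the list of other architectural genes were not run, because neither transcript lengths nor identifiers could be had.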
